A study of Mus musculus with 48 samples.

Results

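The 177 features described here are rows of a count table. A 24-h wave fitted to their RNA in wild-type hepatocytes passed a limit on p and peaked from 36 to under 42 h. Their overall level differed by less than 2-fold between wild-type and Bmal1-KO cells. They were chosen by rule from 32377 rows. A feature had to average at least 16 CPM (the count scaled to the library total) over the 24 wild-type libraries. A 24-h cosine fitted to its wild-type log2(CPM + 1) values had to have an F-test p under 0.05 and a peak in that window. Its pooled KO to WT ratio of CPM had to lie above 0.5 and below 2. The 100 rows with the largest share of the counts and 1 further row named in the rule were left out beforehand, which removed 7 of those 100 that met the other conditions. After this 8311 rows were eligible, and 634 of them (7.63%) had a cosine p under 0.05, where that limit alone gives 415.55. Of these, 184 peaked in the window, 6 of them with a ratio of 2 or more and 1 with a ratio of 0.5 or less, which leaves the 177.

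The cells were AML12, an immortalised mouse hepatocyte line labelled as liver. Cells of one genotype were wild type (WT, the control) and those of the other had lost Bmal1 (KO). Both had received a 1-h dexamethasone pulse to set their clocks and had grown in medium that also held dexamethasone. RNA was measured by bulk Smart-seq3 at 18, 24, 30, 36, 42 and 48 h, with 4 libraries in each of 12 groups of genotype and time. The hours are the numbers in the sample titles. The labels say neither from when they were counted nor whether the 4 libraries were separate cultures or whether the KO line is 1 clone. Each p-value from a fit of group means thus reflects the variation among the libraries of a group, which may be technical. In the cosine fits it also reflects how far the group means depart from a cosine.

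BMAL1 pairs with CLOCK and binds E-box sequences, where it switches on the Period and Cryptochrome genes, whose proteins later block the pair, and the nuclear receptors REV-ERB, which hold back Bmal1 itself. In liver this loop times genes of sugar, lipid and bile acid metabolism. Genes switched on by BMAL1 and genes held back by the repressors it drives peak at different times of the cycle, and dexamethasone, a glucocorticoid, both starts the loop in cultured cells and acts on glucocorticoid target genes directly. The files do not pair rows with gene names or sequences. Which of these genes are among the 177 was therefore not analysed here, and the KO labels and the hepatocyte label were not checked against Bmal1 or marker genes.

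Library totals ran from 72398 to 795991 counts with a median of 387536, and 3 libraries held under 100000 counts, namely WT 18 h replicate 2, WT 24 h replicate 2 and KO 48 h replicate 3. A member had a median of 34 counts in a library, and 0.165% of the member values were 0. The number in the library names changed with genotype and again between 30 and 36 h in each genotype. Differences between KO and WT, and between the early and the late 3 times, cannot be told apart from that number. The letters in those names were assigned to times in the same way in both genotypes. The libraries of 18, 36 and 42 h, the times at which the WT waves were high, carried letters A to H, and those of 24, 30 and 48 h carried letters I to P, so the phase of these waves and the letter cannot be told apart in either genotype.

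In WT cells the 177 features together were high at 18, 36 and 42 h and low at 24, 30 and 48 h, a pattern that the rule itself selects. Their summed level was 25593 CPM ± 1146 (SD, n = 4) at 18 h, 20870 CPM ± 2552 at 24 h and 20397 CPM ± 1174 at 30 h. At the later 3 times it was 26600 CPM ± 1355 at 36 h, 23917 CPM ± 832 at 42 h and 19899 CPM ± 1169 at 48 h. Every WT library of 18, 36 and 42 h lay above every WT library of 24, 30 and 48 h, with a lowest value of 23169 CPM in the first set and a highest of 22274 CPM in the second. At 24 h, 1 library stood apart: replicate 2, with 72398 counts, had 17045 CPM, against 22016 to 22274 CPM in the other 3, whose mean was 22145 CPM ± 129.

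In KO cells the summed level was above that of WT at each time and changed less over time. The rule selects on the WT time course, so the smaller change in KO follows in part from the choice. The summed KO level was 28790 CPM ± 1062 (SD, n = 4) at 18 h, 28198 CPM ± 1252 at 24 h and 27557 CPM ± 507 at 30 h. It was then 29072 CPM ± 806 at 36 h, 28519 CPM ± 839 at 42 h and 26104 CPM ± 3112 at 48 h. From the highest to the lowest mean the 6 times came in the same order as in WT, namely 36, 18, 42, 24, 30 and 48 h, but the libraries of neighbouring KO times overlapped. At 48 h the wide spread came from replicate 3, with 87163 counts, at 21569 CPM against 26944 to 28641 CPM in the other 3, whose mean was 27616 CPM ± 902 and lay above that of 30 h.

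**Figure D1:**
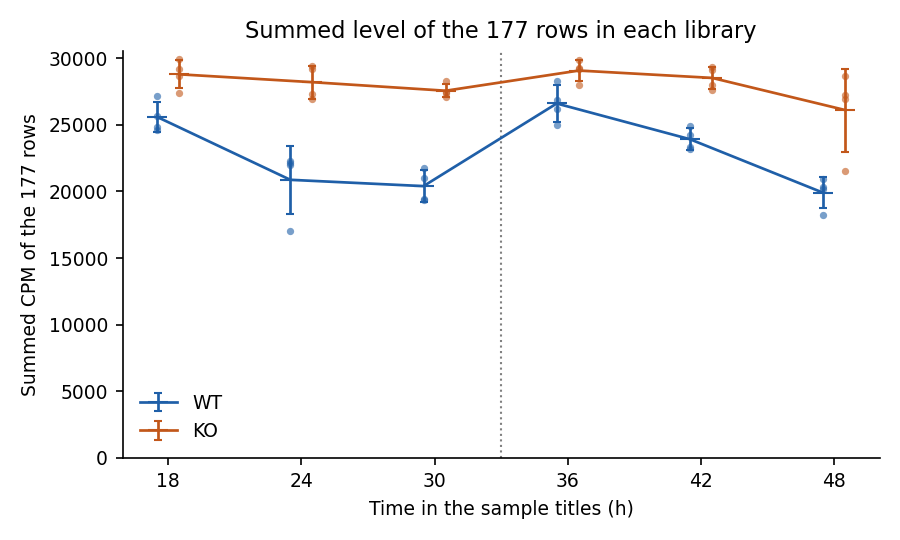
Summed CPM of the 177 features (y axis) in each library against time in h (x axis), WT in blue and KO in orange; small points are libraries, and the line with bars gives the mean and SD of 4 libraries. The WT means run between 19899 and 26600 CPM and the KO means between 26104 and 29072 CPM, and the dotted line marks where the library number changes within each genotype.

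Depth moved with time in both genotypes. The mean library total was lowest at 36 h, with 284466 counts in WT and 234398 in KO, and highest at 42 h, with 562396 and 476910. In 7 of the 12 groups the deepest library had the lowest summed level of the members. With the log2 library total as a further term in the WT cosine fit, a choice made after seeing the data, 274 rows met the rule and 152 of the 177 were among them. Without the 2 WT libraries under 100000 counts 232 rows met the rule, of which 115 were among the 177.

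Member by member, the WT waves were shallow. The fitted amplitude, the height of the cosine above its mean, ran from 0.10 to 0.98 log2 units with a median of 0.29, which is a peak-to-trough ratio of 1.15 to 3.88 with a median of 1.50. The highest WT group mean was at 36 h in 84 members, at 18 h in 68 and at 42 h in 25, and the lowest was at 48 h in 70, at 24 h in 54 and at 30 h in 53. Fitted peaks ran from 36.0 to 41.9 h with a median of 38.3 h, 109 before 39 h and 68 from 39 h on. Hours 18 and 42 fall at 1 phase of a 24-h cycle and 24 and 48 h at another, so each wave was sampled at 4 phases.

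The waves were also weakly supported one by one. The p of the selecting fit ran from 1.13e-04 to 0.0496 with a median of 0.0220, under 0.01 in 38 members and under 0.001 in 7. In edgeR's count-based wave fit, 7 of the 177 were called for a WT wave at an adjusted p under 0.05, where 33 of all 8617 rows tested (0.383%) were called. The rule used these same libraries, so that count describes the choice and nothing is read from it. All 177 passed edgeR's filter on low counts. Mean WT levels ran from 16.3 to 583.07 CPM with a median of 90.1 CPM, and mean KO levels from 12.9 to 685.02 CPM with a median of 109.3 CPM. Median amplitude was 0.40 in the 53 members from 16 to under 50 CPM, 0.29 in the 43 from 50 to under 100 CPM and 0.22 in the 81 at 100 CPM or more. It was thus larger where counts were lower. The limit on p asks for a larger fitted amplitude in a noisier row, so this follows in part from the rule.

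The rows nearest to each limit had the following values. The member with the largest p had 0.0496 and the nearest row left out 0.0503. The earliest peak inside was 36.02 h against 35.99 h outside, and the latest 41.89 h against 42.03 h. The largest ratio inside was 1.99 against 2.05 outside, while the smallest was 0.675 against 0.477. The lowest mean WT level inside was 16.3 CPM, and the nearest row outside had 14.4 CPM with an amplitude of 1.05 and a p of 9.46e-04, a larger amplitude than that of any member.

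The member with the smallest WT p is the clearest single example. Its WT libraries of 18 h had 355, 411, 405 and 321 CPM, while those of 24 h had 317, 249, 347 and 291 CPM and those of 30 h had 308, 269, 261 and 209 CPM. The libraries of 36 h had 394, 394, 441 and 387 CPM, those of 42 h had 412, 320, 289 and 304 CPM, and those of 48 h had 254, 228, 278 and 238 CPM. All 4 libraries of 36 h lay above all those of 24, 30 and 48 h, while those of 18 and 42 h overlapped with 24 h. Its WT amplitude was 0.32, a 1.56-fold range, and in edgeR the adjusted p of its WT wave was 0.0343.

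In KO the same member ran from 287 to 644 CPM with a median of 472 CPM, and 16 of 24 KO libraries exceeded the highest WT library. Its KO group means followed the WT order in part, with 540 CPM ± 100 (SD, n = 4) at 18 h, 481 CPM ± 67 at 24 h and 438 CPM ± 63 at 30 h. They then stood at 507 CPM ± 53 at 36 h, 484 CPM ± 35 at 42 h and 393 CPM ± 75 at 48 h. The member's lowest KO value, 287 CPM, was in the shallow KO 48 h replicate 3. Its KO wave had an unadjusted p of 0.0430 in edgeR and an adjusted p of 0.488, so it was not called.

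The member with the largest WT amplitude had 0.98 in the selecting fit on log2(CPM + 1) and 0.59 in edgeR's count-based fit, where its WT wave had an adjusted p of 0.0600. Its 4 WT libraries of 36 h had 66.5, 66.1, 75.3 and 66.1 CPM, above each of the other WT libraries. WT group means were 47.4 CPM ± 8.90 (SD, n = 4) at 18 h, 30.6 CPM ± 20.9 at 24 h, 36.4 CPM ± 8.17 at 30 h, 29.8 CPM ± 9.39 at 42 h and 20.2 CPM ± 7.96 at 48 h. At 24 h the shallow replicate 2 had a count of 0. In KO it ran from 11.5 to 82.2 CPM with a median of 42.8 CPM, its KO values overlapped at the 6 times, and its KO wave had an adjusted p of 0.937 in edgeR. The member's lowest KO value was a count of 1 in the shallow KO 48 h replicate 3.

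The amplitudes of 0.97 and 0.70 that came next belonged to members with mean WT levels of 19.9 and 16.3 CPM. Their WT libraries ran from 0 to 48.4 CPM with a median of 18.5 CPM, and from 1.59 to 51.1 CPM with a median of 14.0 CPM. The 3 largest fitted amplitudes thus belonged to sparsely counted members. By contrast, the member with the highest level, 583.07 CPM ± 67.2 (SD, n = 24 WT libraries), had an amplitude of 0.13. Its KO libraries ran from 556 to 796 CPM with a median of 681 CPM.

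**Figure D2:**
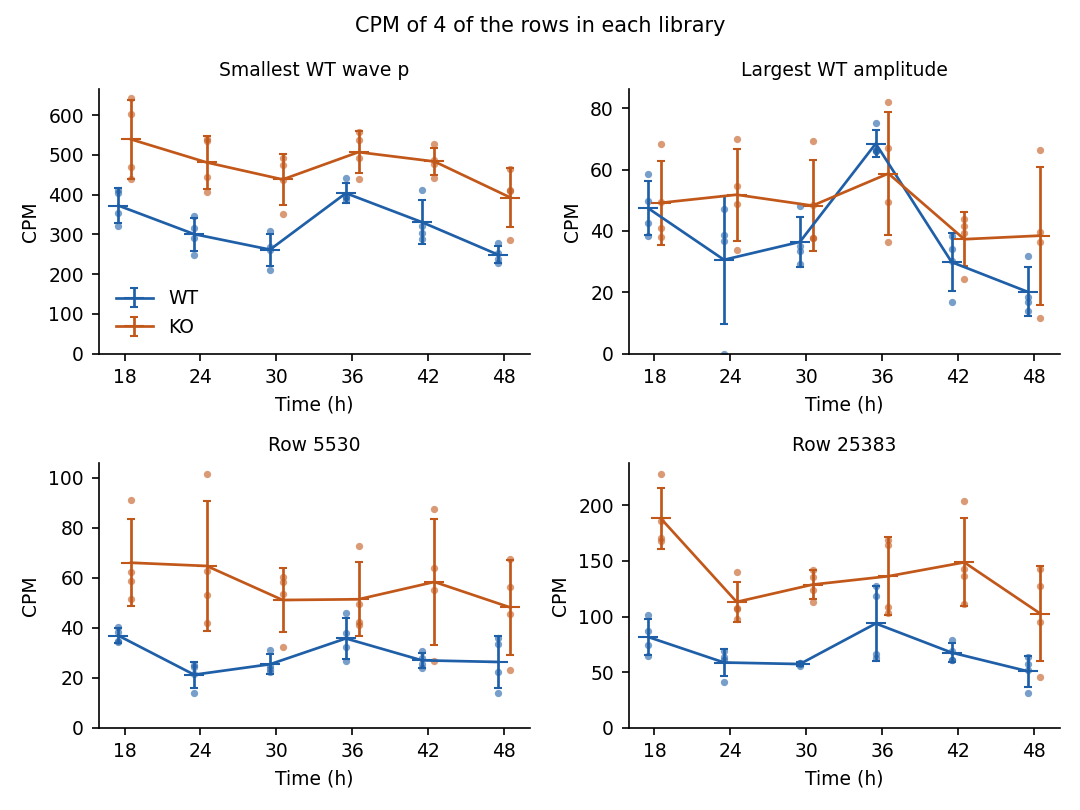
CPM (y axes) against time in h (x axes) of 4 of the 177 features, WT in blue and KO in orange; small points are libraries and the line with bars gives the mean and SD of 4 libraries. The member with the smallest WT p has group means of 249 to 404 CPM in WT and 393 to 540 CPM in KO, the member with the largest amplitude peaks at 36 h in WT, and rows 5530 and 25383 sit higher in KO at each time.

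The KO time course was not used to choose the members, and it was tested for a 24-h wave. The rule selects on the WT values, so the WT amplitudes are raised by the choice and a flatter KO course follows in part from it. The same fit called 7 of the 177 for a WT wave (0.383% of all rows tested). A low count in KO therefore does not show that a wave was lost. In edgeR's quasi-likelihood test with Benjamini-Hochberg adjustment, 0 of the 177 were called for a 24-h wave in KO, where 1 of 8617 rows tested (0.0116%) was called. The smallest adjusted p among the members was 0.128. At an unadjusted p under 0.05 there were 25 members (14.1%), against 845 of all rows tested (9.81%). Limma voom called 0 members and DESeq2 called 1.

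By least squares, without a test, the KO curve was above its own mean at the hour of the WT peak in 129 of 177 members (72.9%), against 62.8% of the eligible rows at theirs. The median height there was 0.08 log2, against 0.05 in the eligible rows. The median KO amplitude was 0.15 in the members and 0.18 in the eligible rows. The median WT amplitude of the members, 0.29, was raised by the choice. An amplitude cannot be negative while a height can, so the 2 are not like measures. The fitted KO peak fell between 36 and 42 h in 74 members (41.8%), against 22.2% of the eligible rows, and in 21, 43 and 39 members in the windows from 24, 30 and 42 h. Cosine p-values under 0.05 in KO occurred in 17 members (9.60%), against 8.59% of eligible rows, and 9 of these 17 peaked between 36 and 42 h.

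A direct difference between the high and low times was read as well. It was taken within each library number, as the mean of 18 h minus the average of 24 and 30 h, and of the average of 36 and 42 h minus 48 h. In WT, where the rule fixes its sign, the median over members was 0.30 log2 with a range of 0.08 to 1.00. In KO the median was 0.07, with a range of -0.41 to 0.95, and 120 of 177 were positive (67.8%), against a median of -0.002 and 49.5% positive over all rows tested. In WT this difference was positive in 100% of members and in 49.97% of all rows tested, so these backgrounds are not matched for its sign. With each row read at its own WT peak hour, the KO curve was above its mean in 72.9% of members and 62.8% of eligible rows.

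No member passed the test of this KO difference in edgeR, DESeq2 or limma voom, and neither did any of the 8617 rows tested in edgeR (0% called higher and 0% lower). At an unadjusted p under 0.05 in edgeR, 20 members were higher at the WT high times (11.3%) and 2 were lower (1.13%), against 313 (3.63%) and 293 (3.4%) of all rows tested. The letters of the library names separate these times as well. The positive lean appeared in the early and in the late 3 times. The median was 0.06 from 18 to 30 h, with 114 members positive, and 0.08 from 36 to 48 h, with 115 positive. Early and late differences were both positive in 77 members (43.5%), against 25.7% of all rows tested. The backgrounds given here are likewise not matched to the members for the sign of the WT difference. With the log2 library total as a term, added after seeing the data, the KO median was 0.06 and 20 members were again higher and 2 lower at an unadjusted p under 0.05.

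**Figure D3:**
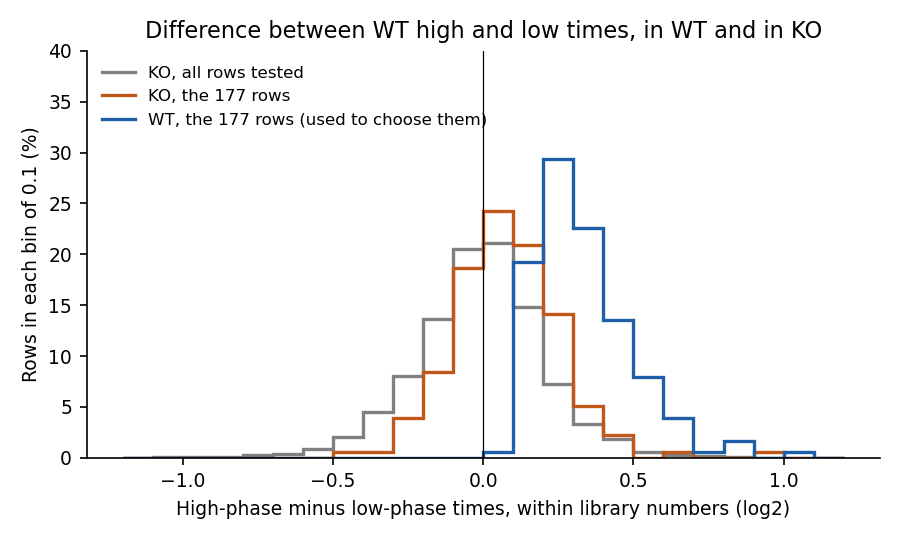
Share of features in bins of 0.1 (y axis, %) by the log2 difference between the WT high times and the WT low times taken within library numbers (x axis), for the 177 features in WT (blue) and KO (orange) and all 8617 rows tested in KO (grey). The WT curve, used in the choice, centres on a median of 0.30, while the KO curve of the members lies at a median of 0.07 and that of all rows at -0.002.

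Single members spread widely around that median. In 18 the KO difference was at least as large as in WT, and in 57 it was below 0. The smallest adjusted p, 0.187 in edgeR, belonged to row 25383, whose KO difference was 0.47 (SE 0.12) next to 0.53 in WT. Among members averaging at least 16 CPM in KO, the largest was 0.95 (SE 0.32; edgeR adjusted p = 0.462) in a sparsely counted member that ran from 3.32 to 35.2 CPM over the KO libraries. The most negative was -0.41 (SE 0.25; edgeR adjusted p = 0.805), in a member that ran from 5.70 to 34.4 CPM over the KO libraries.

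The features whose WT wave peaked between 24 and 30 h, opposite in phase and chosen by the same rule, leaned the other way in KO. Of 106 such features 105 were tested in edgeR, 27.6% had a positive KO difference, and the median was -0.09. In their KO curves too, 71.7% were above their own mean at the hour of their WT peak. No test of the difference between both sets was made.

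A difference of any shape between the 6 KO times was called in edgeR in 1 member, where 83 of all rows tested (0.963%) were called. At an unadjusted p under 0.05 there were 34 members (19.2%), against 12.5% of all rows tested. The called member, singled out after its values were seen, had an adjusted p of 8.97e-04 in edgeR. Its 4 KO libraries averaged 227 CPM ± 37.8 (SD) at 18 h, 194 CPM ± 14.8 at 24 h and 188 CPM ± 49.4 at 30 h, then 269 CPM ± 26 at 36 h, 325 CPM ± 24.8 at 42 h and 289 CPM ± 62.8 at 48 h. The KO libraries from 36 h on were thus mostly above those up to 30 h, a shift that coincides with the change of library number. Its WT means, from 189 to 310 CPM, were highest at 18 h. A count of 2 members called, in place of 1, was found without WT 18 h replicate 2, WT 24 h replicate 1, WT 24 h replicate 2, WT 30 h replicate 2, KO 24 h replicate 1 or KO 24 h replicate 2.

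That same member was the largest of the late-minus-early calls in KO. The average of 36, 42 and 48 h was above that of 18, 24 and 30 h in 3 members, with log2 differences of 0.37, 0.51 and 0.57, and below it in 2, with -0.35 and -0.48, each with an edgeR adjusted p between 1.03e-04 and 0.0202. Over all rows tested, 0.894% were called higher and 1.28% lower. Without KO 18 h replicate 1 or KO 30 h replicate 2, 1 member was called lower. The median over the members was 0.02, and the time and the library number cannot be told apart in this difference.

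The KO to WT level was bounded by the rule and is given as a description, and nothing is read from its counts. On the average of the 6 times 145 of 177 members had a positive KO minus WT log2 difference, with a median of 0.31, against -0.007 over all rows tested. In edgeR, 100 were called higher in KO (56.5%) and 9 lower (5.08%), where 23% and 22.8% of all rows tested were called, and 68 were not called. Differences of those called higher ran from 0.17 to 1.04 with a median of 0.53, and of those called lower from -0.51 to -0.21 with a median of -0.36.

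Read as pooled ratios, 132 of 177 (74.6%) were above 1, with a median of 1.17. Among the 8095 eligible rows with a ratio inside the same bounds, 40.8% were above 1 and the median was 0.950. In the waves with other WT peak hours and a ratio inside the same bounds, it was above 1 in 11 of 106 peaking from 24 to under 30 h, in 63 of 148 from 30 h, and in 78 of 157 from 42 h. The rule used both the peak hour and the ratio, so nothing is read from these shares.

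**Figure D4:**
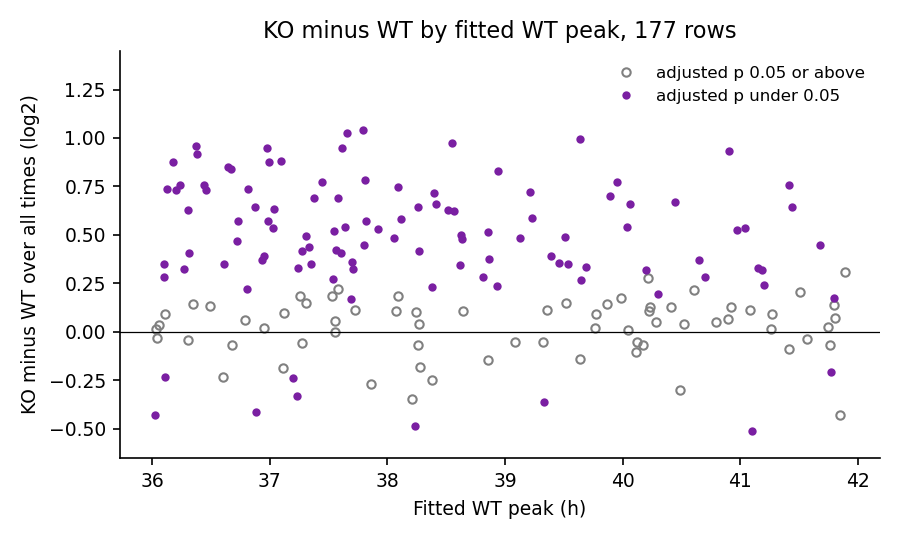
KO minus WT log2 difference over all times (y axis) against the fitted WT peak in h (x axis) of the 177 features, filled where edgeR's adjusted p was under 0.05. Members peaking before 39 h have a median of 0.38 and those from 39 h on a median of 0.16, and the 9 called lower in KO lie between -0.51 and -0.21.

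Within the window, 71 of 109 members peaking before 39 h were called higher and 6 lower (background 23% and 22.8%), with a median of 0.38. From 39 h on, 29 of 68 were called higher and 3 lower, with a median of 0.16. By level, 20 of 53 members under 50 CPM were called higher and 4 lower, where 15.8% and 20.1% of all rows tested from 16 to under 50 CPM were. From 50 to under 100 CPM it was 27 and 2 of 43 (background 23.1% and 25.2%), and at 100 CPM or more 53 and 3 of 81 (background 32.1% and 27.7%). The medians were 0.11, 0.32 and 0.36.

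By time, KO exceeded WT most where WT was low. The median difference was 0.40 at 24 h, 0.41 at 30 h and 0.42 at 48 h, against 0.20 at 18 h, 0.18 at 36 h and 0.23 at 42 h. The difference was larger at the average of the WT low times than of the WT high times in 165 of 177 members, against 51.1% of all rows tested. The rule selects rows that are high in WT at the one set of times and low at the other. This count was therefore largely fixed by the choice, and nothing is read from it.

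Members called higher in KO numbered 65 at 24 h, 61 at 30 h and 71 at 48 h (background 5.73%, 4.84% and 8.98%), and 32 at 18 h, 16 at 36 h and 56 at 42 h (background 4.32%, 2.97% and 8.97%). Called lower were 1, 0, 0, 1, 2 and 1 members from 18 to 48 h, where 3.5%, 4.89%, 4.4%, 2.55%, 7.29% and 8.47% of all rows tested were. At 24 h 0 members, and at 30 h 3, were lower at an unadjusted p under 0.05. The rule selects rows whose WT values are low at 24, 30 and 48 h and high at 18, 36 and 42 h. These counts therefore follow in part from the choice, and nothing is read from them. The counts at 18, 30 and 36 h rest in part on single libraries. Without WT 18 h replicate 1 or KO 18 h replicate 2 the count at 18 h was 19, and without WT 18 h replicate 2 it was 21. At 30 h it was 37 without WT 30 h replicate 4. At 36 h it was 7 without WT replicate 2, 10 without WT replicate 3, 8 without KO replicate 3 and 7 without KO replicate 4. The counts at the other times moved too, with libraries left out 1 at a time or by replicate number. They ran from 32 to 67 at 24 h, from 32 to 60 at 42 h and from 51 to 72 at 48 h.

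**Figure D5:**
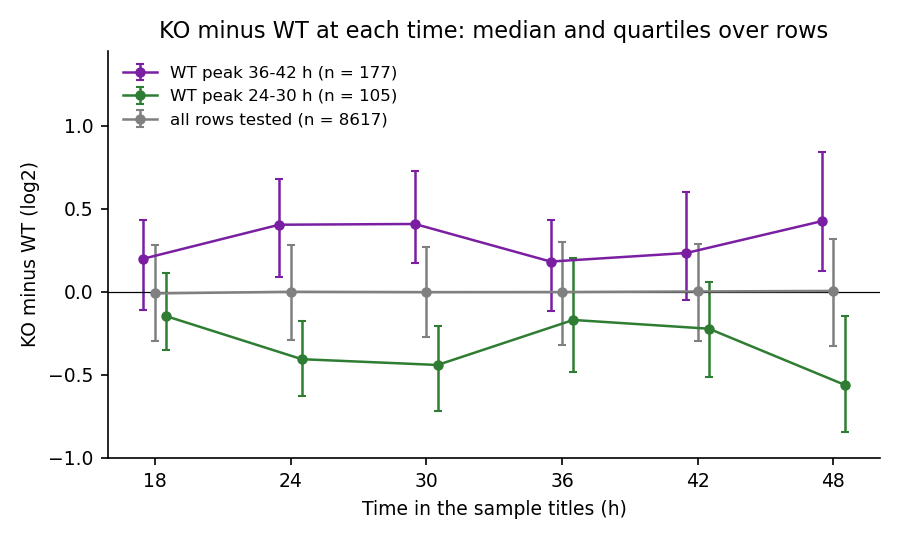
Median (points) and quartiles (bars) of the KO minus WT log2 difference (y axis) at each time in h (x axis), for the 177 features (purple), the features with a WT peak from 24 to under 30 h (green) and all 8617 rows tested (grey). The purple medians run from 0.18 at 36 h to 0.42 at 48 h, the green ones are negative at each time, from -0.56 to -0.15, and the grey ones lie near 0.

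Over the 6 times, 95 members were called higher in KO at 1 time or more and 4 were called lower, 0 in both directions, where 16.1% and 15.1% of all rows tested were. The difference was positive at all 6 times in 80 and negative at all 6 in 6 (18.4% and 17.4% of all rows tested). At each of the 6 times 8 members were called higher, where 0.87% of all rows tested were. The rule used the WT libraries behind these counts, so nothing is read from the counts. All 24 KO libraries lay above all 24 WT libraries in 2 members, and below in 0, where 0.139% and 0.174% of all rows tested did so.

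Those 2 members, singled out after their values were seen, had higher levels than most. The first ran from 144 to 255 CPM with a median of 200 CPM in WT and from 278 to 526 CPM with a median of 342 CPM in KO. In KO its group means were highest at 36 h, at 436 CPM ± 64.5 (SD, n = 4), as they were in WT, at 222 CPM ± 28.5. The second ran from 172 to 340 CPM in WT with a median of 268 CPM and from 353 to 589 CPM in KO with a median of 456 CPM.

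In that second member the times of the highest and lowest means differed between the genotypes. Its WT means were highest at 36 h, with 311 CPM ± 29.5 (SD, n = 4), and at 18 h, with 285 CPM ± 34.7, while its KO means were highest at 24 h, with 542 CPM ± 39.1, and at 30 h, with 504 CPM ± 42.5. At 36 h and 18 h its KO means were the lowest, at 394 CPM ± 45.3 and 396 CPM ± 13.1. Its KO mean of 42 h, 467 CPM ± 54.3, was above that of 48 h, 449 CPM ± 58.4, as it was in WT, and those libraries overlapped. Its KO difference between the WT high and low times was -0.24 (SE 0.08), with an unadjusted p of 0.00263 and an adjusted p of 0.462 in edgeR, and so was not called.

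Of the members with 1 sign at all 6 times, row 5530 and row 25383 had the largest positive KO minus WT differences. Row 5530, which lies just inside the limit with a ratio of 1.99, ran from 13.8 to 46.0 CPM with a median of 27.3 CPM in WT and from 22.9 to 101.4 CPM with a median of 55.7 CPM in KO. The row's lowest KO value was a count of 2 in the shallow KO 48 h replicate 3. Of its 24 KO libraries 17 exceeded the highest WT library, and the fitted difference was 1.04 log2 (SE 0.12). The means of its WT groups were highest at 18 h, at 36.9 CPM ± 2.91 (SD, n = 4), and at 36 h, at 35.7 CPM ± 8.17, and lowest at 24 h, at 21.2 CPM ± 5.15. In KO they ran from 48.1 to 66.0 CPM with overlapping libraries, and its KO wave had an edgeR adjusted p of 0.917.

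Row 25383 kept more of its order in KO. In WT it ran from 31.1 to 127.8 CPM with a median of 63.3 CPM, with group means of 81.7 CPM ± 16.2 (SD, n = 4) at 18 h, 58.7 CPM ± 11.97 at 24 h, 57.4 CPM ± 1.43 at 30 h, 93.8 CPM ± 34.0 at 36 h, 67.6 CPM ± 8.54 at 42 h and 50.9 CPM ± 14.0 at 48 h. In KO the 18 h libraries had 186, 168, 228 and 171 CPM, all above the 98.2 to 142 CPM of the 24 and 30 h libraries. The KO means were then 136.3 CPM ± 35.2 at 36 h, 148.8 CPM ± 39.4 at 42 h and 102.8 CPM ± 42.8 at 48 h, and these overlapped. At 48 h the row had 45.9 CPM in the shallow KO replicate 3, from a count of 4, against 94.9 to 143 CPM in the others. Its KO wave had an unadjusted p of 0.00355 in edgeR and an adjusted p of 0.303, and the fitted KO minus WT difference was 1.03 log2 (SE 0.09).

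Rows 13226 and 16097 had the largest negative differences by the same rule, and both were sparsely counted. Row 13226 ran from 9.53 to 37.1 CPM with a median of 21.6 CPM in WT and from 0 to 29.7 CPM with a median of 13.6 CPM in KO, from 208 counts over all WT libraries and 120 over all KO libraries. The fitted difference was -0.49 log2 (SE 0.18), and 4 KO libraries lay below the lowest WT library. Row 16097 ran from 14.5 to 47.2 CPM with a median of 24.1 CPM in WT and from 0 to 43.8 CPM with a median of 16.7 CPM in KO, and its difference was -0.41 log2 (SE 0.17). Its WT libraries of 36 h, at 46.0, 29.2, 37.6 and 47.2 CPM, were the highest of its course in the mean, while in KO its means ran from 14.3 to 22.4 CPM with wide overlap. Without a filter on low counts row 16097 was no longer called, nor was it in 14 of the 48 fits that each left out 1 library.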

How the data were processed

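The deposited table holds whole-number counts, per the file headers from accepted, sorted and deduplicated alignments. STAR 2.5.4b and mm10 (GRCm38) come from the submitters' processing notes. Not given in the sources used here were the counting tool, annotation, strand setting and any molecular identifiers. Of 180 columns, 48 matched a sample and 132 were not used. Members were chosen on plain CPM with a pseudocount of 1. Tests used edgeR 4.0.16 in R 4.3.3 (TMM, filterByExpr with min.count 10 and min.total.count 15, 8617 rows tested, quasi-likelihood, two-sided, Benjamini-Hochberg over the rows tested, calls at 0.05), with a mean for each of 12 groups or a cosine for each genotype, and were tested on simulated data. Alternatives were DESeq2 1.42.0, limma 3.58.1 and other scalings, filters, periods and left-out libraries. Row numbers were printed for the 2 largest called differences in each direction with 1 sign at all 6 times. No 2 libraries of a group agreed within sampling noise (72 pairs, largest chi-square p 5.43e-10). Members and lists were chosen with earlier results of these data known.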

Additional observations from a re-analysis of the deposited data

Results flagged for a closer look

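Sets of 4 libraries were searched for 1 library far from the other 3, over the summed level of the members and the features singled out in the text. Of 180 sets 12 stood out, where chance gives about 9, that is 1 in 20. The summed level of the 177 features in WT 24 h replicate 2 was 17045 CPM against 22016 to 22274 CPM in the other 3. Row 16097 had 25.8 CPM in KO 24 h replicate 4 against 13.7 to 15.7 CPM. The member of the highest WT level had 681 CPM in KO 30 h replicate 3 against 592 to 600.01 CPM. The member of the largest WT amplitude had 75.3 CPM in WT 36 h replicate 3 against 66.1 to 66.5 CPM. The next by amplitude had 38.5 CPM in WT 18 h replicate 2 against 17.3 to 18.5 CPM, and the one after it 17.5 CPM in WT 30 h replicate 2 against 11.2 to 12.02 CPM. The member of the smallest WT p had 441 CPM in WT 36 h replicate 3 against 387 to 394 CPM. The member of the largest KO difference between WT high and low times had 7.23 CPM in KO 30 h replicate 4 against 22.6 to 25.5 CPM, and that of the most negative one 5.70 CPM in KO 18 h replicate 3 against 12.5 to 13.8 CPM. The member called for a difference between KO times had 444 CPM in WT 36 h replicate 4 against 215 to 242 CPM. In the first of the 2 members whose KO and WT libraries did not overlap, KO 48 h replicate 4 had 442 CPM against 333 to 343 CPM, and WT 24 h replicate 3 had 154 CPM against 201 to 209 CPM.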

How the results depend on the processing

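Libraries were left out 1 at a time, or all those of 1 replicate number together. The higher calls of KO minus WT over all times were 91 to 102 with libraries left out and 92 with plain library totals. The positive median of the KO difference between WT high and low times was 0.05 to 0.09 with libraries left out. Both kept their direction under each alternative run. Members called for a KO wave, 0 in the edgeR fit reported, were 1 with DESeq2, without a filter and with the KO libraries alone. Members called for any KO difference, 1 as reported, were 2 with DESeq2 and plain library totals and 1 to 2 with libraries left out. They were 3 without a filter, without the 3 shallow libraries, with the KO libraries alone and with the log2 library total as a term. Calls of a member at a time that were lower in KO, 5 as reported, were 1 with DESeq2 and without a filter, 10 with plain totals, 8 with the depth term and 1 to 8 with libraries left out, and the 301 higher ones were 179 to 308. Lower calls over all times were 14 with plain totals, against 9, and 7 to 12 with libraries left out. The late minus early median turned to -0.00139 with plain totals and -0.0190 without replicate 4, and ran up to 0.0342. Its calls were 1 to 4 higher and 0 to 3 lower. At an unadjusted p under 0.05, a KO wave had 15 to 28 members and the KO difference 15 to 24 higher and 1 to 4 lower with libraries left out, and 1 lower with DESeq2 and limma voom. The rule gave 38 members at a p under 0.01, all shared, and 274 with the depth term. It gave 264 with the library number as a term (125 shared) and 231 at a period of 22 h (135 shared). With 1 WT library left out it gave 143 to 221 members (120 to 155 shared). Without all libraries of replicate 1, 2, 3 or 4 it gave 154, 142, 166 and 125 members. Of these, 94, 51, 87 and 82 were shared, fewer each time than with any 1 WT library left out. Shared members were 115 without the 2 shallow WT libraries and 117 at a period of 26 h. The cause of these changes was not tested.

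Whether equal replicate numbers pair a WT with a KO library was not settled, and the fits reported did not pair them. Of 24 pairs of WT and KO libraries 9 had deviations correlated above 0.1 (median 0.04, largest 0.32), and 10 correlated best with their own number. Libraries of the same time and replicate number carry the same letter in both genotypes. With a replicate block, 2 members were called for any KO difference, 3 calls at a time were lower and 1 member had a lower KO difference at an unadjusted p under 0.05.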
